A study of Mus musculus with 10 samples.

Results

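Furin and Fes, Nfkbid and Hcst, and Shisa5 with its neighbour Trex1 are genes that lie side by side in the mouse genome and that share a wide RNA polymerase II peak after T cell stimulation. The members were the 5 genes Fes, Furin, Hcst, Nfkbid and Shisa5, of 10419 genes with a promoter peak in any of 6 libraries. Every peak or summit that overlapped a member's gene span with 20 kb on each side was taken, whatever gene the deposited table named for it. That gave 50 of 60704 promoter peaks and 121 of 117973 summits over the 6 libraries. The genes were chosen by measured values, the assigned peaks and their widths in these same tables, whose named gene changed between groups. The assigned lengths and widths below are therefore a description with no test.

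Total RNA polymerase II was mapped by chromatin immunoprecipitation and sequencing (ChIP-seq) with the antibody 8WG16 in primary Th1 cells of Balb/c DO11.10 mice, which carry a T cell receptor transgene. Peripheral CD4+ T cells had been driven toward the Th1 fate, grown with an IL-2 analogue and then kept a day without it. One group was not restimulated (NR), and the others received plate-bound anti-CD3 at 5 µg/ml with soluble anti-CD28 at 2.5 µg/ml for 30 min or for 2 h. Each group had 2 libraries. The labels do not give the animals' age, nor whether the 2 libraries came from separate animals or cultures, so a p-value covers no more than the spread of these libraries, and that spread may be technical. Signal from more cells with polymerase at a gene cannot be told apart from more polymerase per cell.

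RNA polymerase II transcribes protein-coding genes, and on a strongly transcribed gene it is found over the promoter, the gene body and a stretch past the 3′ end. A peak caller joins enriched stretches that touch, so 2 neighbouring genes can end up in 1 peak that carries the name of only 1 of them. Furin encodes a proprotein convertase of the secretory pathway that cuts many precursor proteins, and its name comes from its place upstream of Fes. Fes encodes a cytoplasmic tyrosine kinase best known from myeloid cells. Nfkbid encodes IκBNS, an atypical nuclear IκB protein that modulates NF-κB and is induced by T cell receptor signals. Hcst encodes DAP10, the adaptor that couples the receptor NKG2D to PI 3-kinase. Shisa5, also called Scotin, encodes an endoplasmic reticulum protein known as a p53 target, and Trex1 encodes a DNA exonuclease that degrades cytosolic DNA.

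The 3 loci differ in layout (build mm10, gene positions from RefSeq). Furin (chr7:80389194-80405441) and Fes (chr7:80377758-80387954) are both on the minus strand, with Fes downstream and 1239 bp between the spans. Nfkbid (chr7:30421731-30428749, plus strand) and Hcst (chr7:30417712-30419854, minus strand) point away from each other, with 1876 bp between them. Shisa5 (chr9:109038567-109057792, plus strand) and Trex1 (chr9:109057932-109059723, minus strand) point toward each other, and only 139 bp separate them. The next promoter peaks outside the windows belonged to Hddc3, Sdhaf1 and Tma7, and in NR replicate 1 they lay 14321, 74468 and 4213 bp beyond the window's edge.

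The bases just before the start sites of the first 2 pairs are shown for 1 reason. After stimulation the wide peaks there carry the name of 1 gene of the pair and have their summit in the other. RefSeq's promoter table for GRCm38.p6 held windows for all 5 members. The windows run from 250 bases before a start to 50 after it, and 32851 such windows were searched on both strands for 6 motifs. They were the GC box GGGCGG, the CCAAT box, the TATA box TATAAA, the AP-1 motif TGANTCA and, by name alone, the κB and CArG motifs. The 250 bases before the start are printed 5′ to 3′ in the gene's direction, with matches in capitals:
Furin (chr7:80405437-80405686, minus strand): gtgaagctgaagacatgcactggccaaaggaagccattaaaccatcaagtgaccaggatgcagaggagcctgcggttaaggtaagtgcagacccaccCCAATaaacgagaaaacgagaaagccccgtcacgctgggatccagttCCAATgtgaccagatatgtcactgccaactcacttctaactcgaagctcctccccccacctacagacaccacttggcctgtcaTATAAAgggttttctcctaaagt
Fes (chr7:80387947-80388196, minus strand): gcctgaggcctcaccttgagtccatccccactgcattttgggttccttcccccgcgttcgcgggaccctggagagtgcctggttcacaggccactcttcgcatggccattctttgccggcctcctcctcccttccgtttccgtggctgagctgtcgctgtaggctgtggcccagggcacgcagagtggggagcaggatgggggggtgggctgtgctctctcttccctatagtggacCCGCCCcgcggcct
Nfkbid (chr7:30421481-30421730, plus strand): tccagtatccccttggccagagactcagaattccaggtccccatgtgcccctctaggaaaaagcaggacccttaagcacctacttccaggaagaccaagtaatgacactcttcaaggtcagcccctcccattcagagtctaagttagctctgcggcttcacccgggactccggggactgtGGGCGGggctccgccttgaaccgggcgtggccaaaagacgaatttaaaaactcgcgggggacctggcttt
Hcst (chr7:30419855-30420104, minus strand): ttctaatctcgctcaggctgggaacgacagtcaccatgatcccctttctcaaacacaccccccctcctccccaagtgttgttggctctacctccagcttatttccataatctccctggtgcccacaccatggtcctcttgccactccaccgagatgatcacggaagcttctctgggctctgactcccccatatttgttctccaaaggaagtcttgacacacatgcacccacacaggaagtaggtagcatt
The printed Furin window held TATAAA at position -23 and CCAAT at -153 and -106, counted from the start site. The window of a downstream Furin start site at chr7:80402812 held neither, but had 2 GGGCGG, in either direction, at -208 and -101. TATAAA was present in 13.6% of all windows and CCAAT in 37.4%. The printed windows of Fes and Nfkbid each held 1 GGGCGG, in either direction, at -14 and -70, a motif found in 35.7% of all windows. The Hcst window held none of the 6 motifs. A downstream Nfkbid start site at chr7:30422406 had 2 κB matches before it, GGGACTTCCC at chr7:30422180-30422189 and GGAATTCCCC at chr7:30422225-30422234. The printed Nfkbid window and that of the Nfkbid start at chr7:30423275 held no such match. A window of Trex1, which is no member, held 1, GGGGGCCTCC at chr9:109059960-109059969. Per window, 8.5% of all windows held such a match. No window of the 5 members held TGANTCA, present in 7.8% of all windows, or a CArG match, present in 1.6%. These matches describe letters only.

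Library depth and peak width differed between replicates. Depth was inferred from the lowest local background and the step of the deposited pileups, which assumes a like fragment length in all libraries. Relative to NR replicate 1, depth was 8.98 in NR replicate 2, 2.39 and 7.09 at 30 min and 3.76 and 8.43 at 2 h (replicates 1 and 2). The median promoter peak was 725 and 920 bp wide in NR, 692 and 1184.5 bp at 30 min, and 987 and 1229 bp at 2 h. The shallowest and the deepest library were thus both NR libraries, and the narrowest median was that of 30 min replicate 1. T cell markers (Cd3e, Cd3d, Cd3g, Cd4 and Lck) had called DNA in every library, as had 3 of 4 Th1 markers. The 3 B cell, 4 myeloid and 2 NK cell markers had none, and Cd8a and Cd8b1 summed to 0 to 576 bp.

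At the Furin/Fes locus the widest peak was named Furin in NR cells and Fes after stimulation. It measured 4199 and 3836 bp in the 2 NR libraries, 20073 and 25751 bp at 30 min, and 21910 and 19585 bp at 2 h. All 4 stimulated values lay above both NR values. Over all genes the widest peak within 1 kb of a start site was wider in both 30 min libraries than in both NR libraries for 12.0%. It was wider in both 2 h libraries for 53.3%, and since width chose the loci nothing is read from their lack of overlap. The group means were 4017.5 ± 257 bp, 22912 ± 4015 bp and 20747.5 ± 1644 bp (SD, n = 2). In NR the widest peak lay inside Furin, and a separate peak of 3833 or 3041 bp covered the Furin start with the locus's highest pileup (168 and 235.45, where the pileup is the number of overlapping fragments at the summit, rescaled in replicate 2). Fes had its own small peaks in NR, 1417 and 2313 bp in all.

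The wide peak named Fes had its summit at Furin. In 30 min replicates 1 and 2 and in 2 h replicate 1 the summit lay 87, 16 and 86 bp inside Furin from its start. These 3 peaks covered all of Furin and ran 2525, 7614 and 3961 bp past its 3′ end into Fes, of whose span they held 12.6%, 62.5% and 26.7%. In 2 h replicate 2 the enriched stretch was split. A 4594 bp peak named Furin held the Furin start, with a pileup of 374.4, and after a gap of 358 bp a 19585 bp peak named Fes had its summit 670 bp downstream of an internal Furin start, with a pileup of 258.7.

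**Figure D1:**
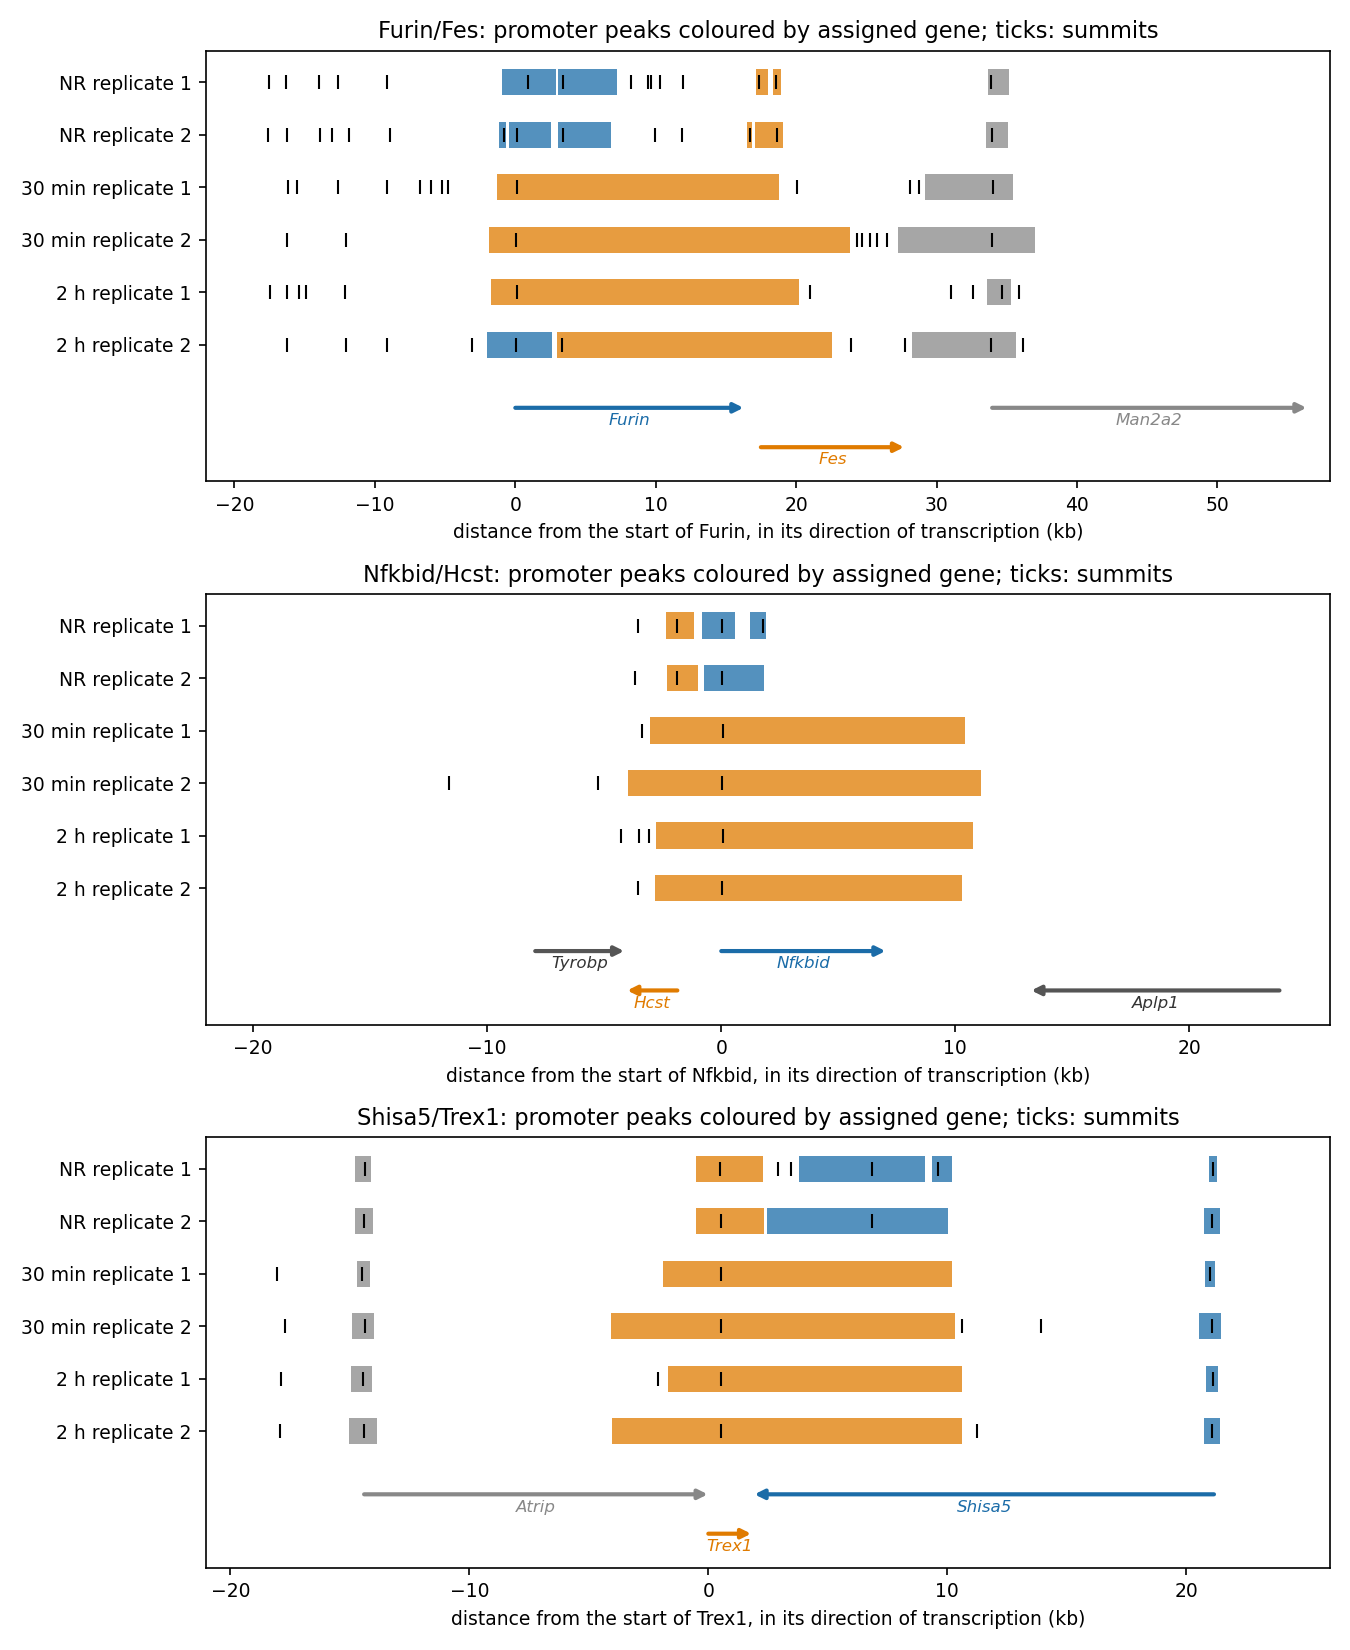
Deposited promoter peaks (bars) and summits (ticks) in each of 6 libraries at the 3 loci, against the distance in kb from the start of Furin, Nfkbid or Trex1 in its direction of transcription. Bars take the colour of the gene name they were assigned to (grey for Man2a2 and Atrip), and arrows show the genes. In the 4 stimulated libraries 1 orange bar replaces the blue and orange bars of NR, except at Furin/Fes in 2 h replicate 2 and beside the small blue bar at the first Shisa5 start, and the tick of the Furin/Fes and Nfkbid/Hcst bars stays inside the blue gene.

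Nfkbid and Hcst had separate peaks in NR cells and 1 common peak after stimulation. The widest peak was named Nfkbid in NR, with 1426 and 2543 bp, and Hcst in the other 4 libraries, with 13429 and 15087 bp at 30 min and 13547 and 13078 bp at 2 h. Group means were 1984.5 ± 789.8 bp in NR, 14258 ± 1172 bp at 30 min and 13312.5 ± 332 bp at 2 h (SD, n = 2). The stimulated libraries did not overlap NR. In NR the Hcst peak was the narrower of the pair, at 1198 and 1311 bp, but had the higher pileup, 41.0 against 31.0 in replicate 1 and 126.96 against 119.46 in replicate 2.

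The common peak named Hcst covered all of Nfkbid in 4 of 4 stimulated libraries. Its summit lay 54, 38, 69 and 40 bp downstream of the Nfkbid start, and in NR the summit of the widest Nfkbid peak lay 45 and 34 bp from it. Past the 3′ end of Nfkbid the peak continued for 3377, 4072, 3732 and 3248 bp. Toward Hcst it held 54.0%, 98.9%, 42.9% and 43.6% of that gene's span. No promoter peak was assigned to Tyrobp, which encodes the related adaptor DAP12 and follows Hcst on its far side.

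At the Shisa5 locus the gene that took over the wide peak was Trex1, which is no member. The widest peak was named Shisa5 in NR, at 5285 and 7581 bp, and Trex1 at 30 min, at 12053 and 14391 bp, and at 2 h, at 12295 and 14622 bp. Group means were 6433 ± 1624, 13222 ± 1653 and 13458.5 ± 1645 bp (SD, n = 2), and NR did not overlap the other groups. The NR peak of Shisa5 had its summit 29 and 25 bp from an internal Shisa5 start (chr9:109052854), not at the gene's first start. Trex1 had a separate peak in NR of 2802 and 2826 bp with the higher pileup, 62.0 against 55.0 and 223.91 against 166.2.

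After stimulation these peaks were 1, and here the summit went with the name. It lay 73, 52, 77 and 59 bp from the more downstream of 2 Trex1 start sites (chr9:109059251), and in NR the Trex1 summit lay 28 and 47 bp from the same site. The common peak held all of Trex1 and 42.9% to 45.2% of the Shisa5 span, its 3′ part. What stayed assigned to Shisa5 was the small peak at its first start, 450 and 927 bp at 30 min and 481 and 653 bp at 2 h, against 315 and 677 bp for the same peak in NR. The distant start of Shisa5 thus kept a small peak of its own in all 6 libraries, with a range that overlapped between groups.

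Over the 3 loci and 4 stimulated libraries the named gene of the widest peak differed from NR in 12 of 12 cases, and the assigned gene was the one nearest the summit in 4 of 12, all at Trex1. Taking the peak with the highest pileup in place of the widest, the name differed from NR in 3 of 12 cases, all at Furin/Fes, because Hcst and Trex1 already had the highest pileup in NR. Between 30 min and 2 h the widest peak kept its name at all 3 loci. Across all merged promoter regions the name of the widest peak changed in both libraries in 18 of 7737 regions at 30 min against NR (0.233%), in 46 of 8286 at 2 h against NR (0.555%) and in 6 of 8074 at 2 h against 30 min (0.0743%). The 3 loci were chosen for such a change, so nothing is read from their share. Between the 2 libraries of 1 group the name differed in 1.57% (NR), 2.19% (30 min) and 1.02% (2 h) of regions. These compare 1 library with 1 other, while the shares between groups need the change in both libraries. The 2 kinds of share are thus not comparable.

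The wide peaks were among the broadest of their libraries. The Furin/Fes peak ranked 2 of 9074 and 5 of 10680 at 30 min and 3 of 10549 and 18 of 10658 at 2 h, against 110 of 9360 and 181 of 10383 in NR. For Nfkbid/Hcst the rank was 1183 and 480 in NR, 11 and 48 at 30 min, and 26 and 64 at 2 h. Shisa5/Trex1 was already broad in NR, with ranks of 61 and 47, against 20 and 53 at 30 min and 38 and 46 at 2 h. Within its own library, therefore, only the Shisa5/Trex1 peak had a rank range that overlapped between NR and stimulated cells. In 30 min replicate 1, whose median peak was narrower than in both NR libraries, the 3 peaks were 20073, 13429 and 12053 bp wide, above every NR value of their locus. In NR replicate 2, the deepest library by inferred depth, they were 3836, 2543 and 7581 bp wide. Width chose these loci, and what depth or a library's general peak width did to these peaks was not tested.

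Assigned length, the total width of the peaks that the tables give to a gene, moved in opposite directions within the pairs. Furin had 8032 and 7373 bp in NR, 0 and 0 bp at 30 min, and 0 and 4594 bp at 2 h. Fes had 1417 and 2313 bp, then 20073 and 25751 bp, then 21910 and 19585 bp. Read by gene name alone, Furin would be listed without a promoter peak in 3 of 4 stimulated libraries. Nfkbid had 2127 and 2543 bp in NR and was listed at 0 in all 4 stimulated libraries, while Hcst had 1198 and 1311 bp in NR and 13078 to 15087 bp after stimulation. For Shisa5 the assigned length was 6430 and 8258 bp in NR and 450 to 927 bp after stimulation, and for Trex1 2802 and 2826 bp and then 12053 to 14622 bp.

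When each peak was given instead to the start site nearest its summit, an alternative added after the data had been seen, Furin and Nfkbid held the wide peaks. Furin then had 8032 and 7373 bp in NR, 20073 and 25751 bp at 30 min, and 21910 and 24179 bp at 2 h, and Fes had 0 bp in all 4 stimulated libraries. Nfkbid had 2127 and 2543 bp in NR and 13078 to 15087 bp afterwards, and Hcst had 0 bp. Shisa5 and Trex1 had the same values as in the tables, since the Trex1 summit is nearest a Trex1 start.

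**Figure D2:**
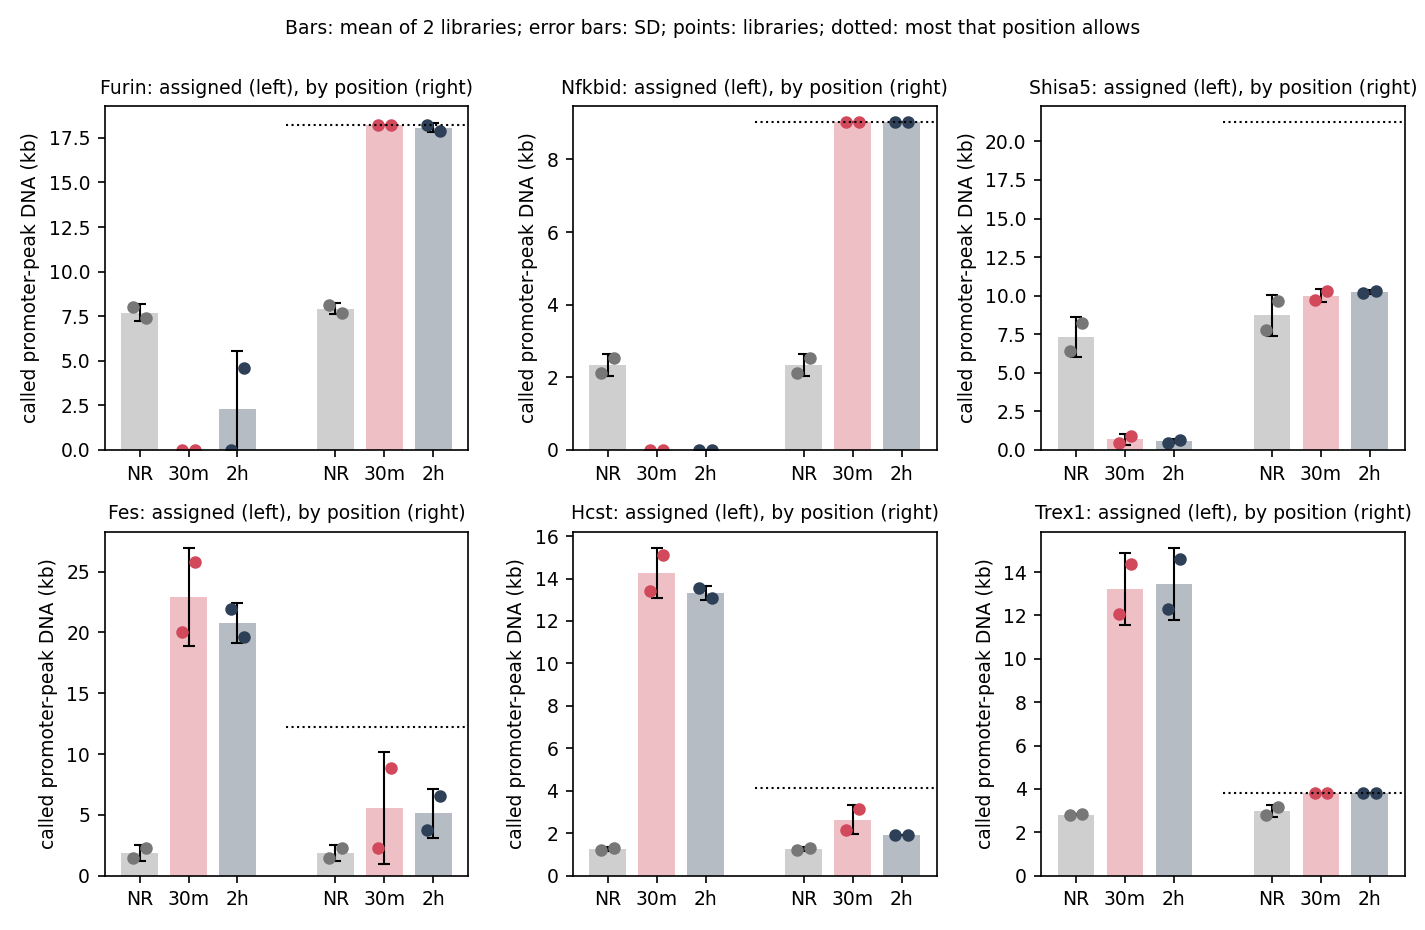
Promoter-peak DNA in kb for 6 genes in NR, 30 min and 2 h libraries: the length assigned to the gene in the tables (left bars) and the length lying in its span with 1 kb on each side (right bars), with the mean of 2 libraries, the SD as error bar and each library as a point. Assigned length is 0 for Nfkbid in all 4 stimulated libraries, while by position all 4 are at the dotted line, the most the window allows.

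Counted by position, that is, as base pairs of any promoter peak within the gene span and 1 kb on each side, Nfkbid and Furin were covered nearly end to end after stimulation. Nfkbid had 2127 and 2543 bp in NR and 9015 bp in each of the 4 stimulated libraries, which is the whole window. Furin had 8146 and 7706 bp in NR, 18243 and 18243 bp at 30 min (the whole window) and 18243 and 17885 bp at 2 h. Both genes' stimulated libraries lay above NR. Of all genes tested, 12.0% had both 30 min libraries above both NR libraries in base pairs and 54.1% had both 2 h libraries above them, so that at 2 h a lack of overlap was common. Since a full window cannot grow, the value stops at that length and does not follow the peak beyond it.

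The other members had smaller differences by position in base pairs. Fes had 1417 and 2313 bp in NR, 2278 and 8832 bp at 30 min, and 3714 and 6512 bp at 2 h, so that 30 min replicate 1 lay within the NR range. Of the 8832 bp in 30 min replicate 2, part came from a 9770 bp peak of Man2a2, a Golgi mannosidase gene downstream of Fes, that reached into the Fes span. Hcst had 1198 and 1311 bp, then 2157 and 3120 bp, then 1920 and 1935 bp, with every stimulated library above NR. Shisa5 had 7785 and 9655 bp in NR, 9695 and 10308 bp at 30 min, and 10166 and 10324 bp at 2 h. The stimulated libraries of Shisa5 were thus all above NR by a small margin, where the assigned lengths were far below it.

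In the fit across all genes by position (limma, Benjamini-Hochberg adjusted over 10153 genes, threshold 0.05), none of the 5 members passed. At 30 min against NR 25 genes passed (0.246%), all longer, and 859 had an unadjusted p under 0.05. With the replicate number as a block, 40 genes passed at 30 min, again with no member. For 2 h against NR the number was 28 (0.276%), all longer, with 1250 under 0.05 unadjusted. Between 2 h and 30 min none passed (0%), with 487 under 0.05 unadjusted, and the lowest adjusted p of a member was 0.697. Leaving out any single library moved the first 2 counts by more than 1.5 times. At 30 min against NR 10 genes passed without NR replicate 1, 38 without NR replicate 2, 52 without 30 min replicate 1, 296 without 30 min replicate 2 (74 longer and 222 shorter, so that the direction turned), and 2 and 5 without 2 h replicates 1 and 2. For 2 h against NR the counts were 11 and 64 without NR replicates 1 and 2, 151 and 162 without 30 min replicates 1 and 2, and 0 without either 2 h library. Without 30 min replicate 2 the third count was 183. The same contrasts chose the members, so their values below support nothing beyond their size.

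Nfkbid had the largest change by position among the members, a log2 change of 1.76 ± 0.32 (SE) at 30 min (limma adjusted p = 0.159) and of 1.44 ± 0.32 at 2 h (adjusted p = 0.170). With a pseudocount of 1000 bp in place of 100 bp it passed, at 1.49 (adjusted p = 0.0459) and 1.31 (adjusted p = 0.0411). It also passed without 30 min replicate 2, at 2.15 (adjusted p = 0.0259) and 1.44 (adjusted p = 0.0442). Counted only within 1 kb of its start sites it had 0.47 (adjusted p = 0.891) and 0.19 (adjusted p = 0.854). Without centring Nfkbid had 1.91 at both times, since each stimulated library held its full window of 9015 bp. Its lower value at 2 h than at 30 min thus comes from the centring and is no loss of called DNA. Over all alternatives of Nfkbid the adjusted p ran from 0.0259 to 0.891 at 30 min and from 0.0411 to 0.854 at 2 h. The log2 change of Furin was 1.04 ± 0.62 at 30 min (adjusted p = 0.700) and 0.71 ± 0.62 at 2 h (adjusted p = 0.646). Within 1 kb of its start sites Furin had 0.02 and -0.33, after quantile normalisation 0.57 and 0.34, and at 30 min 0.64 without 30 min replicate 1. Without centring Furin had 1.19 and 1.18. For Fes the log2 change in the main fit was 1.11 ± 0.41 (adjusted p = 0.537) and 0.92 ± 0.41 (adjusted p = 0.430). The 30 min value of Fes was 1.67 without 30 min replicate 1 and 0.55 without 30 min replicate 2. Within 1 kb of its start sites Fes had 0.28 and 0.07, and with −log10 q of at least 10 it had 3.14 and 2.97, and neither setting brought it past the threshold.

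Hcst had a log2 change of 0.84 ± 0.18 at 30 min (limma adjusted p = 0.201) and of 0.11 ± 0.18 at 2 h (adjusted p = 0.807), and within 1 kb of its start site 0.51 and 0.17. Shisa5 was near 0 in both, at 0.05 ± 0.42 (adjusted p = 0.999) and -0.23 ± 0.42 (adjusted p = 0.834), and without centring its 2 h value turned to 0.24. Centring took out a shift of 0.15 at 30 min and of 0.47 at 2 h, so these changes are relative to that shift. Trex1 had 0.18 ± 0.29 and -0.13 ± 0.29.

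**Figure D3:**
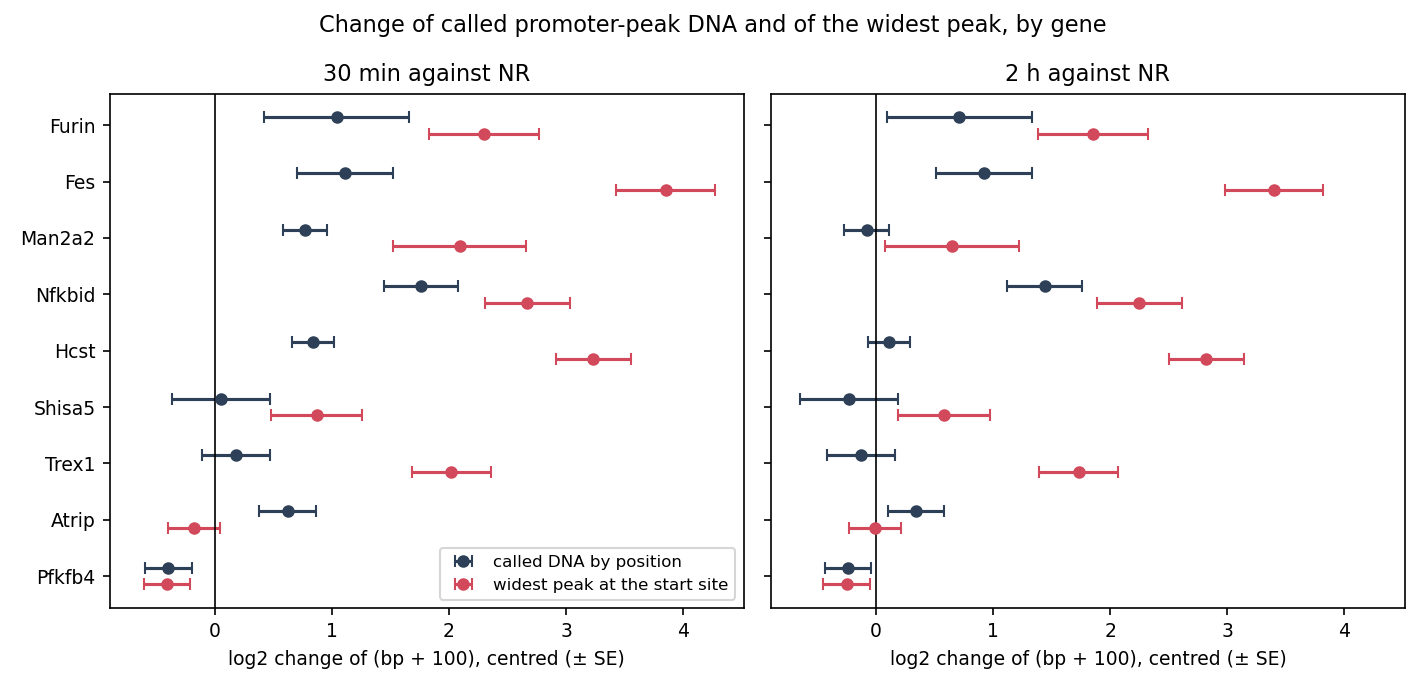
Log2 change (± SE) at 30 min and at 2 h against NR for the members and the other genes with a promoter peak near them. Called DNA by position and the width of the widest peak within 1 kb of a start site are shown. Both are as log2(bp + 100) and centred. Fes and Hcst have changes of 3.85 and 3.23 in width and of 1.11 and 0.84 by position at 30 min.

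The width of the widest peak within 1 kb of a gene's start site was a measure added after the data had been seen. It gave larger changes because a common peak is credited whole to each gene it reaches. For Furin the peaks of 4199 and 3836 bp in NR and of 19585 bp in 2 h replicate 2 covered no Furin start. At 30 min against NR the log2 change was 3.85 ± 0.42 (SE) for Fes, 3.23 ± 0.32 for Hcst, 2.67 ± 0.36 for Nfkbid, 2.30 ± 0.47 for Furin and 0.87 ± 0.39 for Shisa5. At 2 h it was 3.40, 2.82, 2.25, 1.85 and 0.58 in the same order. Peak width chose these loci, so no test is given.

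Of the other genes in the windows, Trex1 and Man2a2 had positive changes by this measure, also given with no test. The log2 change was 2.02 ± 0.34 (SE) at 30 min and 1.73 ± 0.34 at 2 h for Trex1, and 2.09 ± 0.57 and 0.65 ± 0.57 for Man2a2. In base pairs Man2a2 had an assigned peak of 1531 and 1594 bp in NR, 6283 and 9770 bp at 30 min, and 1672 and 7401 bp at 2 h, so the 2 h libraries were far apart. By position Man2a2 had 1531 and 1594 bp, then 2386 and 3923 bp, then 1672 and 2566 bp. Its log2 change by position was 0.77 ± 0.19 (SE) at 30 min and -0.08 ± 0.19 at 2 h. Much of its wider peaks thus lay outside its span with 1 kb on each side. Atrip, whose product binds the checkpoint kinase ATR and whose 3′ end adjoins Trex1, had 689 and 735 bp in NR, 556 and 896 bp at 30 min, and 883 and 1190 bp at 2 h. Its log2 change in width was -0.18 ± 0.22 and -0.01 ± 0.22, and its promoter peak stayed separate from the Shisa5/Trex1 peak in all 6 libraries. Pfkfb4, a glycolytic regulator on the other side of Shisa5, had group means of 817.5 ± 226, 704.5 ± 359 and 966.5 ± 101 bp (SD, n = 2).

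The Furin span held 7 and 4 summits in NR, 1 and 1 at 30 min, and 1 and 2 at 2 h. Each promoter peak at these loci held 1 summit, so peaks that join list fewer. The share of all genes whose summit counts part in this way between groups was not counted, and nothing is read from it. Fes had 1 summit in each library but 30 min replicate 2, which had 5. Hcst had 2 and 2 in NR, 1 and 0 at 30 min, and 2 and 1 at 2 h, and Shisa5 had 5 and 2, then 1 and 3, then 1 and 2. Nfkbid had 2 and 1 in NR and 1 in each stimulated library. Upstream of Furin, outside any promoter peak and any protein-coding RefSeq gene, all 6 libraries had a summit 16 kb from the start (16303, 16286, 16185, 16265, 16275 and 16264 bp). Its −log10 q was 14.4 and 47.5 in NR, 32.7 and 106 at 30 min, and 31.7 and 77.2 at 2 h. By rank within its own list it stood at 6144 of 19888 and 7417 of 17627 in NR, 3003 of 15330 and 6600 of 23299 at 30 min, and 7408 of 20086 and 7173 of 21743 at 2 h. These ranks overlapped between groups. Each library also had a summit about 12 kb upstream (12612, 11880, 12626, 12057, 12160 and 12055 bp), with a −log10 q of 19.4 and 24.9 in NR, 50.3 and 136 at 30 min, and 104 and 137 at 2 h. Its rank was 4537 and 10157 in NR, 1588 and 5325 at 30 min, and 2006 and 4303 at 2 h, in the same lists. Ranks in lists of different lengths describe the lists and show no change.

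Over all genes, assignment switched for few. A gene was counted when the tables gave it a peak in both libraries of 1 group and in neither of the other. Promoter-peak DNA had to lie within 1 kb of its start in all 4. At 30 min against NR 11 genes gained a peak in this way (0.106% of 10419) and 27 lost one (0.259%), with Furin and Nfkbid among those that lost. For 2 h against NR 25 gained (0.240%) and 57 lost (0.547%), with Nfkbid among the latter, and at 2 h against 30 min 5 gained (0.0480%) and 8 lost (0.0768%), with no member. Fes, Hcst and Shisa5 kept an assigned peak in every library and could not be counted. The balance was not stable: without 30 min replicate 2 the first comparison had 92 gained and 79 lost, and without 2 h replicate 2 the second had 78 and 75. Without the demand on called DNA at the start they had 39 and 38, and 268 and 69. Between 2 h and 30 min the genes gained were 74 and those lost 10 without that demand, 45 and 32 without 30 min replicate 1, and 63 and 18 without 2 h replicate 2. Leaving out 1 library raised the sum of both directions from 38 to between 58 and 171 at 30 min, from 82 to between 117 and 232 at 2 h, and from 13 to between 48 and 247 between the times. At 2 h against NR the count without NR replicate 1 was the lowest, and each other library moved these sums by more than 1.5 times. The highest came without 30 min replicate 2, without NR replicate 2 and without 30 min replicate 2. Without 2 h replicate 2 Furin was also lost at 2 h.

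By assigned length over the 6 libraries, centred on the log2 scale, the genes most like each member by Euclidean distance were as follows. Il21, the gene of a helper T cell cytokine, was nearest to Fes (distance 1.30) and to Hcst (0.82), with 2045 and 1535 bp in NR and 13958 to 16029 bp after stimulation. Irf4, the gene of a transcription factor induced by T cell receptor signals, was the third nearest to Fes (1.55) and had 3513 and 2772 bp and then 11442 to 24360 bp. Nfkbia, the gene of the NF-κB inhibitor IκBα, was the third nearest to Hcst (1.45), with 1118 and 1559 bp and then 7257 to 9615 bp. Lilr4b was the second nearest to Hcst (1.37), and Hcst was itself the second nearest to Fes (1.54). Assigned length chose the members. For Fes and Hcst after stimulation it is the width of the wide peak whose summit lay in Furin or Nfkbid. By position Hcst ran from 1198 to 3120 bp over the 6 libraries and Il21 from 1535 to 11878 bp. The likeness is therefore one of assigned length only.

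The genes nearest to Nfkbid were also listed at 0 after stimulation but had called DNA by position throughout. They were Astl (distance 0.04), the ribosomal protein gene Rps12 (0.34) and Slc25a11 (0.52), and their lowest values by position in any library were 2067, 1974 and 1415 bp. For Furin they were Pym1 (3.43), the ribosomal protein gene Rpl27a (4.71) and Manf (5.20), with lowest values by position of 1708, 1271 and 2522 bp. For Shisa5 they were BC147527 (2.80), Frmd8 (3.10) and Fam189b (3.21). The distances of Furin and Shisa5 are several times those of Nfkbid, so their nearest genes are less alike.

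Genes that work with the members were read from lists, and no gene of any list passed the test by position in any comparison. All 8 genes of the IκB family and its NF-κB precursors, Nfkbid included, had a positive log2 change at 30 min and at 2 h. The medians were 1.10 and 1.01, against -0.03 over all genes tested. The share of all genes with a positive change was not counted, and Nfkbid was chosen on these data, so nothing is read from the 8. In 30 min replicate 1 Bcl3 had 2133 bp, within its NR values of 2689 and 1697 bp. Nfkbiz had 1875 and 2333 bp in NR and 2532 and 12467 bp at 30 min, so its libraries there were far apart. After Nfkbid, the largest at 2 h was Nfkbia with 1.41 ± 0.26 (SE, limma adjusted p = 0.129). Its called DNA was 1118 and 1559 bp in NR, 4864 and 5133 bp at 30 min, and 5053 and 5239 bp at 2 h.

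The other lists had medians at 2 h between -0.24 and 0.29. Of the proprotein convertases 4 of 9 were tested, and beside Furin the largest change at 2 h was that of Pcsk7 (-0.43 ± 0.20, limma adjusted p = 0.450). Of furin substrates 5 of 7 were tested, with Tgfb1, the gene of a cytokine that furin matures, at 0.45 ± 0.37 (adjusted p = 0.631) and Insr at -0.25 ± 0.69 (adjusted p = 0.896). Among Fes and other non-receptor tyrosine kinases, 11 of 12 tested, Zap70, a kinase of the T cell receptor, had 1.09 ± 0.23 (adjusted p = 0.147). For DAP10 and DAP12 signalling, 7 of 9 tested, the largest were Grb2 (-0.31 ± 0.44, adjusted p = 0.787) and Vav1 (-0.23 ± 0.15, adjusted p = 0.561). Of the 15 p53 targets, Perp had 1.80 ± 1.28 (adjusted p = 0.582) and Fas, the gene of a death receptor, 1.50 ± 0.23 (adjusted p = 0.0871). A positive change was seen in 9 of 15, again without the share over all genes beside it.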

How the data were processed

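Peaks were called separately in each library, since each has its own deposited lists. The submitters' processing notes list BWA 0.7.13, Picard 1.119, MACS2 2.1.0 and mm10, without roles. The deposited tables hold promoter peaks within 1000 bp of a start site, each given by the authors to 1 gene by a tool not given in the sources used here. Per the file headers, each peak has a signal (the pileup at its summit), a fold enrichment (a ratio to local background) and −log10 p and q values. These are the authors' own values and were used only within a list, where they describe, rank or filter peaks. The fold and pileup also gave the relative depths. The deposited lists hold no read counts, and the smallest −log10 q is 1.31.

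Base pairs of promoter peak were counted per gene as log2(bp + 100), within the gene span and 1 kb on each side. Genes with called DNA in at least 2 libraries (10153 of 10419) were kept, and libraries were centred by subtracting their median over 8049 genes called in all 6. All 6 libraries entered 1 model in limma 3.58.1 (R 4.3.3), whose single factor was the group, with Benjamini-Hochberg adjustment. A permutation of 2 libraries against 2 cannot give a p under 0.333. On simulated data for 2 h against NR with 10153 genes the fit recovered 71 of 100 genes changed by a log2 of 2. It recovered 80 of 100 changed by 4, with 7 calls among unchanged genes. The simulated noise was independent between libraries and no window capped the values, so these rates do not give the power of the real fit. Merged regions join promoter peaks that share 1 bp or more. Sequences are from RefSeq (GRCm38.p6), and 10407 of 10419 genes of the tables were matched to that assembly by gene ID.

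Same-numbered replicates deviated together, with correlations of 0.455 (NR and 30 min), 0.296 (NR and 2 h) and 0.434 (30 min and 2 h) between their deviations from the group means. The numbers come from the labels. Alternatives were another pseudocount, no low-value filter, a window around start sites, peaks with −log10 q of at least 10, quantile normalisation, a replicate block, other assignment rules and each library left out. Members, lists and tests were chosen with earlier results of these data known. The naming rule took the members, the genes near them, the 3 nearest genes by assigned length, up to 10 switching regions, and of each list the genes past the threshold or else the 2 with the largest change by position at 2 h. The 3 H3K36me3 libraries and the input library were not analysed here.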

Additional observations from a re-analysis of the deposited data

How the results depend on the processing

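The number of genes that passed by position depended on most settings. At 30 min against NR, with 25 genes, it was 47 with a pseudocount of 1000 bp, 10 in a window of 1 kb around start sites, 4 with −log10 q of at least 10, 38 after quantile normalisation and 6 without centring. Of the 38, 1 was shorter. For 2 h against NR, with 28 genes, it was 140 (7 shorter), 8, 4, 205 (28 shorter) and 6 under the same settings, and 44 for the width of the widest peak. Between 2 h and 30 min, with 0 genes, a pseudocount of 1000 bp gave 8 and quantile normalisation 1. Leaving out 1 library gave 2 to 296, 0 to 162 and 0 to 183 genes.

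With the replicate number as a block, 40 genes passed for 30 min against NR, 42 for 2 h against NR and 0 between 2 h and 30 min, and no member passed (lowest adjusted p 0.111, 0.114 and 0.432). The block changed no member's call.

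Assignment switches at 30 min against NR, 38 genes, numbered 77 without the demand on called DNA at the start and 22 with −log10 q of at least 10. For 2 h against NR, 82 genes, the first gave 337. Between 2 h and 30 min, 13 genes, these gave 84 and 7, and assignment to the start nearest the summit 30. Leaving out 1 library gave 58 to 171, 117 to 232 and 48 to 247. The gene of the widest peak differed from NR in 12 of 12 cases, also with −log10 q of at least 10, and in 3 by the highest pileup.

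Of 130 member values by position under an alternative, 122 kept their direction and their side of the threshold and 4, all of Nfkbid, came past it. The other 4 changed sign: Furin at 2 h in the window around start sites (-0.33), Shisa5 at 2 h without centring (0.24), and Shisa5 at 30 min after quantile normalisation (-0.41) and when 1 library was left out (-0.30 without 30 min replicate 1, against 0.40 without 30 min replicate 2). The cause was not tested. The shallowest library by inferred depth was NR replicate 1, and what depth did to its peaks was not tested.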

Other observations

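Across all promoter peaks the named gene and the summit often parted where a peak covered several starts. Between 6.50% and 7.42% of the promoter peaks of a library covered the starts of at least 2 protein-coding genes. Of those over exactly 2 genes and assigned to 1 of them, the assigned gene was the one nearest the summit in 50.8% and 50.6% in NR, 52.4% and 51.6% at 30 min, and 52.3% and 52.0% at 2 h. Peaks wider than 10 kb were 11 and 26 in number in NR cells, 33 and 142 after 30 min and 76 and 125 after 2 h. Those that covered at least 2 genes' starts came to 1 and 2 in NR cells, 4 and 17 after 30 min and 8 and 12 after 2 h, and the 3 loci described here made up 3 of the 4 and 3 of the 17 after 30 min, and 3 of the 8 and 2 of the 12 after 2 h.

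Only 3 merged regions were given to 1 single gene in both NR libraries and to another single gene in both 30 min libraries. The name went from the ribosomal protein gene Rpl27a to Snora3, from the ribosomal protein gene Rps16 to AF357399, and from 1810032O08Rik to Snord1c. At Rpl27a the widest peak was 1501 and 1271 bp in NR, 1969 and 8524 bp at 30 min, and 8446 and 8504 bp at 2 h. At Rps16 it was 1176 and 1219, then 1999 and 6445, then 5400 and 6143 bp. The regions of Furin/Fes, Nfkbid/Hcst and Shisa5/Trex1 were not among these 3, because both genes had a peak there in NR.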
